A study of Mus musculus with 3 samples.

Results

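The 10 genes described here are P2ry12, P2ry13, Gpr34, Tmem119, Siglech, Selplg, Fcrls, Olfml3, Sall1 and Mef2c. They were taken as named rows of the count table, 10 of its 50262 genes, and all 10 were detected. They are widely used as the signature of resting, or homeostatic, microglia, the resident macrophages of the brain. Microglia scan the tissue with motile processes, and the ADP receptor P2Y12, the product of P2ry12, steers these processes toward injured cells. Signals through the CSF1 and TGF-beta receptors keep microglia alive and keep their identity, for which the zinc finger factor Sall1 is required, and the signature is known to fade when microglia react to injury or disease.

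Cells came from mouse gliomas that start in the adult brain after injection of a Cre lentivirus. The mice carried a conditional transgene for human wild-type EGFR, Cdkn2a-/- alleles and, among other elements, a conditional luciferase reporter on a mixed genetic background, and were 12 to 16 weeks old. All groups shared the same genotype, and the normal brains of the study were not analysed here. Viable cells were sorted by the leukocyte surface protein CD45 into CD45+ and CD45- cells and encapsulated on the inDrop platform, which counts captured mRNAs by unique molecular identifiers (UMIs). The annotation places the libraries in early, medium and large tumors, and large is called late here. Each stage is 1 tumor sample, and early samples of the study were pooled from 2 mice. Stage and tumor sample therefore cannot be told apart, no test between stages was possible, and stage differences are given as values. Xist, which is transcribed from the inactive X chromosome of female cells, had a level of 302 CPM in early CD45+ cells, 2.67 in medium and 1.11 in late. CPM stands for the UMIs of a gene per 1000000 UMIs of the group of cells. The tumor samples therefore also differed in ways other than stage, among them the share of female cells, which cannot be told apart from stage.

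Promoter windows of 3 members are printed first. P2ry12 and P2ry13 are neighbors on chromosome 3 and encode related ADP receptors, and Fcrls had the largest stage difference of the 10. The windows run from 250 bases before to 50 bases after the annotated transcription start, 5′ to 3′ on the strand of the gene, and come from RefSeq on GRCm38.p6. Capitals mark GAGGAAG, a core of the sites bound by the myeloid factor PU.1, which was searched on both strands. The P2ry12 window is chr3:59262936-59263235 (minus strand) and held no such run, the P2ry13 window is chr3:59210833-59211132 (minus strand) with the run starting at -48, and the Fcrls window is chr3:87263475-87263774 (minus strand) with the run starting at -144.
P2ry12: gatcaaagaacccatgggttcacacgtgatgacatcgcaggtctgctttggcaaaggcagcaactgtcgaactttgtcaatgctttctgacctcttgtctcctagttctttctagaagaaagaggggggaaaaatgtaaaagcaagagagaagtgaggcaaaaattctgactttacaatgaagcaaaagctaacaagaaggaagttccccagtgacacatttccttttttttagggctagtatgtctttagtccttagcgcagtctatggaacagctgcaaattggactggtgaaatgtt
P2ry13: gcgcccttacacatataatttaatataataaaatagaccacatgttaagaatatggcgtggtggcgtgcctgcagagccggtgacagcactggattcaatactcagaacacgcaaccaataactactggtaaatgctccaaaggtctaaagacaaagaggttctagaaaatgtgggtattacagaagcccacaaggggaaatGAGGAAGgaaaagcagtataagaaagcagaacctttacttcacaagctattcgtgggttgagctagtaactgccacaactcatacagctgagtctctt
Fcrls: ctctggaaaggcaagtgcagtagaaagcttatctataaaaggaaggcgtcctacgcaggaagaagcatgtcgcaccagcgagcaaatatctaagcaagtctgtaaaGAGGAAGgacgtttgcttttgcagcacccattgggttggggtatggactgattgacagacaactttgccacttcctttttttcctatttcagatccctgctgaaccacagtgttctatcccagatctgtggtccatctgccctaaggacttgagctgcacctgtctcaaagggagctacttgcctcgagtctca
Windows were found for 7 of the 10 members, 11 in all, and 3 of the 11 held the run, from P2ry13, Fcrls and Mef2c. Of all 32851 mouse windows of this length, 13.6% held it.

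The table held 20811 cells in 24 libraries, 4 for each stage and sort, spread over 3 sequencing runs, and 17781 cells were kept. The 6 groups of stage and sort held 1603 to 5091 kept cells each, with median depths of 1964 to 3078.5 UMIs per cell. Libraries of 1 sample and sort are technical repeats, so the spread between them measures technical error only. They also shared cell barcodes: the 36 pairs of such libraries had 1316 barcodes in common, with a median of 15.5 a pair, and in 88.2% of these the 2 cells fell in the same class. The 240 other pairs shared 954 barcodes, with a median of 3, and 10.3% fell in the same class. Cells with a shared barcode made up 135 of 3989, 77 of 785 and 36 of 1062 microglia-like cells in the early, medium and late CD45+ sort. Over all classes they were 753 of 3983 medium CD45+ cells and 653 of 2268 late CD45- cells. Whether such a pair is 1 cell counted in 2 libraries was not tested. If so, cell numbers are too high, counting intervals too narrow and the spread between libraries too small. The cells were kept, and leaving them out changed the summed level of the members in medium over early from -0.35 to -0.33 and in late over early from -0.31 to -0.32 on the log2 scale.

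Classes of cells were built without the 10 members, from clusters named by other markers, and names end in "-like" because they rest on RNA. Microglia-like cells made up 78.4% (77.2 to 79.5) of early, 19.7% (18.5 to 21.0) of medium and 50.3% (48.2 to 52.5) of late CD45+ cells (exact binomial 95% intervals, which cover counting error only). They were 5 clusters with all 11 microglia markers detected at every stage, among them Cx3cr1 at 5826, 5046 and 5497 CPM in early, medium and late. The summed microglia markers reached 18092, 15253 and 17281 CPM, and the 13 markers of macrophages or monocytes 103, 198 and 460 in the same cells, with 3, 0 and 4 of them at 0. The 10 members had 12658 CPM together in early, 9946 in medium and 10180 in late microglia-like cells. In early CD45+ cells 93.5% of the members' UMIs lay in microglia-like cells, against 58.1% in medium and 82.7% in late. Clusters that met no naming rule held part of the remainder and are described after the stages.

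Among the receptors, P2ry12 and Gpr34 were lower at both later stages than in early microglia-like cells. P2ry12 (chr3:59216272-59262871) had 3133, 3605, 3769 and 2964 CPM in the 4 early libraries, 2036, 2739, 2271 and 2430 in the 4 medium ones, and 2400 and 2775 in the 2 late ones that held at least 50 microglia-like cells. Every medium and late library lay below every early library, and medium and late overlapped. Pooled over libraries, medium cells had 71.6% (69.2 to 74.1) of the early level and late cells 73.6% (71.6 to 75.7), with exact Poisson 95% intervals for counting error. Gpr34 (chrX:13632089-13640858), a receptor for lysophosphatidylserine, had 1240, 1499, 1389 and 1250 CPM in the early libraries, against 884, 926, 1006 and 904 in medium libraries and 902 and 996 in late ones. Again no later library reached the early ones, and the pooled levels were 67.3% (63.6 to 71.1) and 67.4% (64.3 to 70.5) of early. Gpr34 lies on the X chromosome, and the early tumor sample also stood apart from both later ones in Xist, so sex and stage cannot be told apart. P2ry13 (chr3:59207892-59210882), a further ADP receptor, had 923 to 1025 CPM over the early, 738 to 805 over the medium and 878 to 900 over the late libraries. These are 3 separate ranges, with medium at 77.4% (72.8 to 82.4) and late at 88.0% (83.8 to 92.4) of the early level.

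Of the proteins on the cell surface, Selplg was lower at both later stages, Fcrls was lowest in medium, and Tmem119 and Siglech differed little. Selplg (chr5:113818536-113832644) encodes PSGL-1, a selectin ligand that most leukocytes carry. It had 2086, 2193, 2069 and 2093 CPM in the early libraries, 1395, 1777, 1783 and 1741 in medium libraries and 1437 and 1643 in late ones, without overlap between early and later libraries. Its pooled level was 80.5% (77.2 to 83.9) of early in medium and 70.6% (68.1 to 73.2) in late. Fcrls (chr3:87250758-87263738), an Fc receptor-like scavenger receptor gene, had 180, 173, 201 and 162 CPM in the early libraries, 41.9, 92.8, 40.1 and 70.0 in medium libraries and 143 and 145 in late ones. The 3 stages did not overlap, and medium reached 38.7% (31.4 to 47.3) of the early level from 104 UMIs, late 78.9% (69.8 to 88.9). On the log2 scale the medium value was -1.37, and it depended on the cells counted. It was -0.58 (66.8% of early) with every deposited cell and -2.31 (20.2%) with unnamed clusters 2, 16 and 26, described after the stages, counted in, and -1.78 without the second medium library.

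Tmem119 (chr5:113793729-113800516), a membrane protein used as a microglia marker in tissue, had 992, 1217, 1339 and 1198 CPM in the early libraries, 1043, 1102, 969 and 1160 in medium libraries and 1181 and 1406 in late ones. Early libraries overlapped with those of both later stages, and medium libraries lay below late ones. Its pooled level was 87.0% (82.5 to 91.7) of early in medium and 102.1% (98.0 to 106.4) in late. Siglech (chr7:55768178-55778925), a receptor of the Siglec family, had 1532 to 1621 CPM over the early, 1399 to 1502 over the medium and 1394 to 1539 over the late libraries. Its pooled levels were 92.3% (88.2 to 96.6) and 90.9% (87.5 to 94.5) of early.

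The secreted glycoprotein gene Olfml3 and the transcription factor genes Sall1 and Mef2c did not share a pattern. Olfml3 (chr3:103722222-103738001) had 978 to 1028 CPM over the early, 809 to 1052 over the medium and 772 to 943 over the late libraries. Early and medium overlapped, and the pooled levels were 94.98% (89.8 to 100.5) of early in medium and 85.2% (81.1 to 89.5) in late. Sall1 (chr8:89027235-89044162) had 202, 216, 200 and 213 CPM in the early libraries, 134, 181, 170 and 192 in medium libraries and 219 and 238 in late ones. Both late libraries lay above the early ones and all medium libraries below, while the pooled levels were 82.4% (72.1 to 93.9) in medium and 105.9% (95.9 to 116.8) in late. Mef2c (chr13:83504034-83667080), a factor that neurons and B cells also use, had 562, 537, 568 and 484 CPM in the early libraries, 427, 325, 398 and 350 in medium libraries and 382 and 489 in late ones. Medium lay below early without overlap, at 68.4% (62.4 to 74.7), and late reached 83.6% (78.1 to 89.4) with 1 of its 2 libraries inside the early range.

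**Figure D1:**
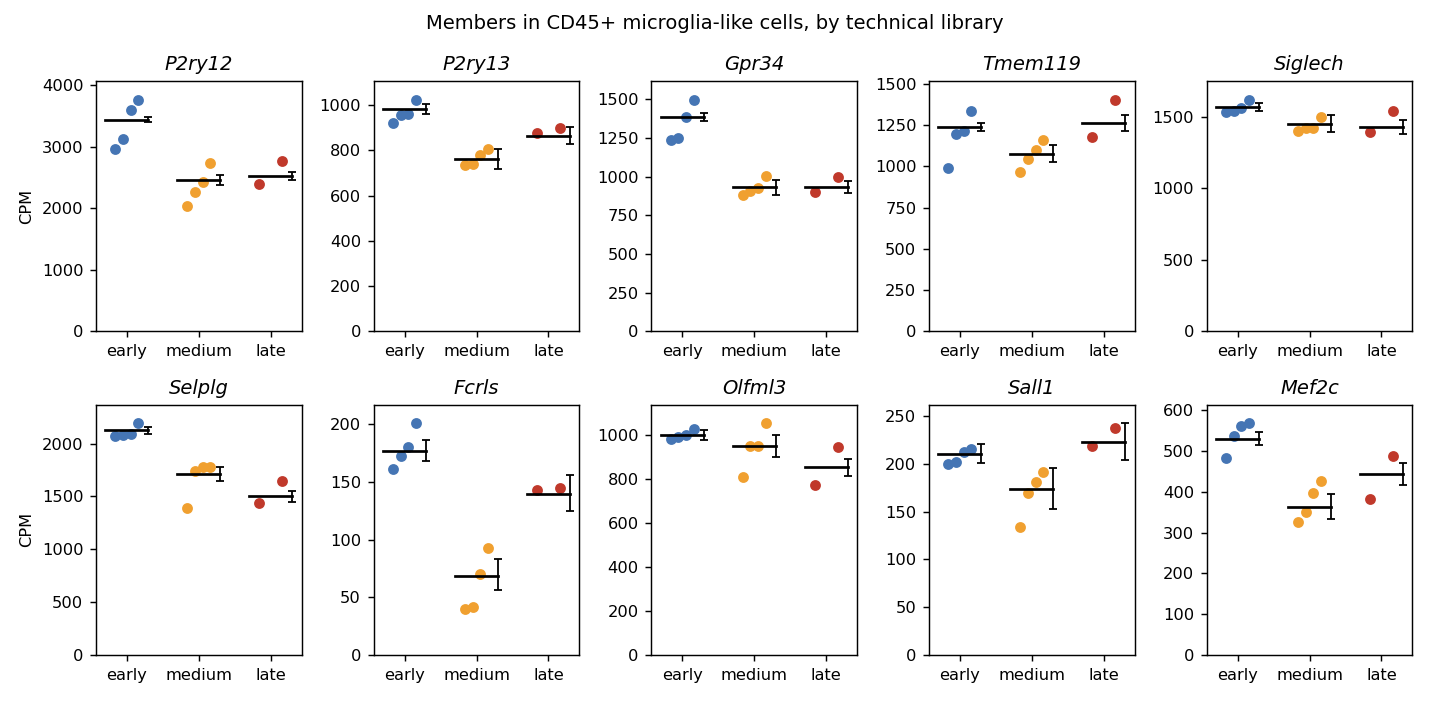
CPM of each member in CD45+ microglia-like cells (y axis, starting at 0) by stage; points are technical libraries with at least 50 such cells (4 early, 4 medium, 2 late), lines the pooled level and bars its exact Poisson 95% interval. P2ry12, Gpr34 and Selplg show no overlap between early and later libraries, and the medium points of Fcrls lie between 40.1 and 92.8.

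Counted over the list, all 10 members were lower in medium than in early microglia-like cells, where 53.0% of the 15997 genes with at least 10 UMIs were lower. In late cells 8 of 10 were lower against 42.7% of 16233 genes. A difference of at least 2-fold downward was seen for 1 of 10 members in medium (Fcrls), against 7.84% of all genes, and for 0 of 10 in late, against 4.58%. The medium difference of Fcrls was under 2-fold with every deposited cell and within clusters 3 (53.1% of early), 4 (51.2%) and 22 (64.2%). These clusters held 411, 311 and 14 Fcrls UMIs over all stages, so the value of cluster 22 rests on few counts. Whether the cluster values differ from 2-fold was not tested. Among genes with at least 100 CPM in one of the stages, as all members had, the shares at least 2-fold lower were 0.234% of 1706 in medium and 0.735% of 1769 in late. All medium libraries lay below all early ones for 8 of 10 members, against 3.86% of all genes and 8.68% of those with at least 100 CPM, and both late libraries for 6 of 10, against 6.43% and 13.5%. The median log2 ratio of the members was -0.34 in medium and -0.24 in late, that of all genes -0.04 and 0.08. Size and, for some members, direction depended on which cells were counted as microglia-like. P2ry12, Gpr34, Selplg and Mef2c were lower at both stages under each of the 26 alternatives for medium and the 25 for late, and so were P2ry13 and Fcrls in medium. Direction turned under at least 1 alternative for P2ry13, Siglech, Fcrls and Olfml3 in late and for Tmem119, Siglech, Olfml3 and Sall1 in medium. In late, Tmem119 and Sall1 were above early in the pooled value and below it under other alternatives, among them each cell classed by its own markers (-0.48 and -0.45) and the run 3 library of that stage left out (-0.15 and -0.024).

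The summed level made the range plain. It was -0.35 (-0.37 to -0.32) in medium and -0.31 (-0.33 to -0.29) in late over early on the log2 scale. Within sequencing run 2 it was -0.36 in medium and -0.43 in late, and within run 3 -0.31 and -0.17. With the members used in clustering it was -0.17 and -0.011, and with each cell classed by its own markers, without clusters, -1.45 and -0.86. Within the 4 clusters large enough at all stages it ran from -0.53 to -0.18 in medium and from -0.83 to 0.013 in late, with the lowest value of both stages in a cluster led by Gem, Dusp2 and Tnf.

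**Figure D2:**
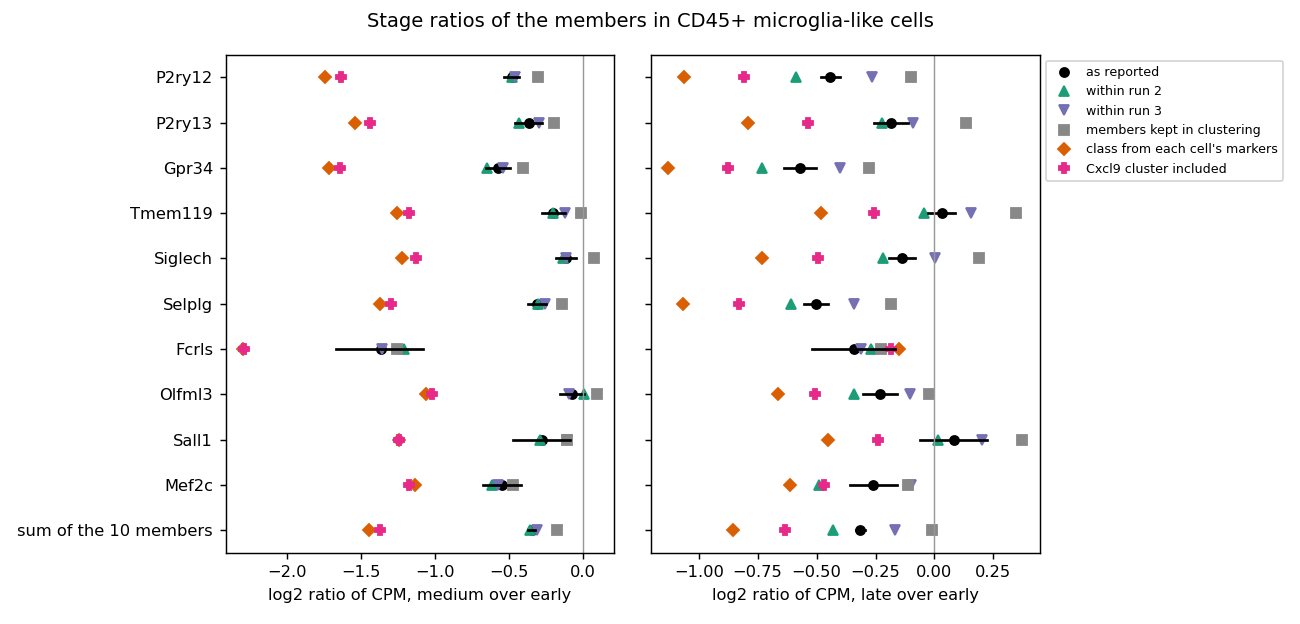
Log2 ratio of CPM in CD45+ microglia-like cells, medium over early (left) and late over early (right), for each member and their sum; black points are the reported values with exact 95% counting intervals, and the other symbols are 5 alternatives named in the key. Cells classed by their own markers lie farthest to the left for the sum (-1.45 and -0.86), and with members kept in clustering the late sum lies at -0.011.

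The 5 microglia-like clusters differed among themselves in the level of the members. Their summed level over the CD45+ cells of all stages was 15059 CPM in the cluster of the highest level, 12316 and 12237 in the next ones, 9761 in the cluster led by Gem, Dusp2 and Tnf, and 8599 in a cluster led by the interferon-response genes Ifit3b, Ifit3 and Ifit2. The counting intervals of 12316 (12187 to 12446) and 12237 (12091 to 12385) overlapped, and those of the others did not. These levels pool stages, whose shares of a cluster differ. In early the same clusters had 15147, 12621, 12980, 11212 and 9378 CPM, so the clusters at 12621 and 12980 changed places, and in medium the last ones were close, at 7788 and 7645. Each cell was also thinned to 1000 UMIs to compare cells at equal depth. A thinned microglia-like cell showed 5.44 of the 10 members on average in early, 4.63 in medium and 4.98 in late. No member was seen in 0.411% of early, 3.32% of medium and 3.06% of late microglia-like cells. P2ry12 was seen in 87.3%, 72.3% and 76.7% of thinned cells, and before thinning in 93.2%, 82.2% and 85.1%.

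Over all CD45+ cells the members differed more between stages than within microglia-like cells. Their sum was 10331 CPM in early, 2670 in medium and 5387 in late, which is 25.8% (25.5 to 26.2) and 52.1% (51.5 to 52.8) of early. Both parts of these sums were lower, the share of microglia-like cells (78.4%, 19.7% and 50.3% in early, medium and late) and the summed level within them (78.6% and 80.4% of early). P2ry12 had 19.9% of the early level in medium and 44.5% in late, and Fcrls 15.1% in medium and 89.6% in late. The late libraries of at least 50 cells lay far apart in the sum of the members, at 2441, 5227 and 5904 CPM, the lowest from 91 cells. Early libraries ran from 8493 to 10813 CPM and medium ones from 2373 to 2868. In medium, every library lay below every early library for all 10 members, against 12% of 19929 genes (2393) and 34.3% of the 1852 with at least 100 CPM, and in late for 8 of 10, against 6.73% of 19101 and 19.6% of 1828 (3 late libraries of at least 50 cells).

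Other genes of microglial identity from fixed lists were read in the same cells, as counts of genes with at least 10 UMIs. Over all genes the share that was lower is 53.0% in medium and 42.7% in late, and the share at least 2-fold lower 7.84% and 4.58%. Of 20 further homeostatic genes, 18 were lower in medium (median log2 ratio -0.23) and 16 in late (median -0.14), beside -0.04 and 0.08 for all genes, with 0 at least 2-fold lower in medium and 1 in late, Crybb1. Crybb1, a crystallin gene that marks microglia, had 478, 383 and 217 CPM in early, medium and late, a log2 ratio of -1.14 in late. Cst3, the secreted cysteine protease inhibitor cystatin C, followed at -0.62, the ectonucleotidase Entpd1 at -0.48 and the adhesion receptor Adgrg1 at -0.37 in late. Of the regulators of microglial identity, 10 of 16 were lower in medium (median -0.06) and 4 of 16 in late (median 0.17). The growth factor Csf1 had a log2 ratio of 0.58 in late, the Kruppel-like factors Klf2 and Klf4 0.52 and 0.30, and Bhlhe41 0.36.

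Disease-associated microglia genes stood higher. In late cells 12 of 18 were at least 2-fold higher, against 6.22% of all genes, with a median log2 ratio of 2.07, and in medium cells 8 of 18, against 6.28%, with a median of 0.75. Igf1, a growth factor, had 1.82, 6.59 and 96.3 CPM in early, medium and late, and Clec7a, the beta-glucan receptor dectin-1, 7.15, 25.1 and 138. Spp1, the secreted protein osteopontin, had 35.1, 92.3 and 524, and the fatty acid-binding protein gene Fabp5 18.8, 84.4 and 174. Markers of macrophages or monocytes were also higher in these late cells (460 against 103 CPM), and their part in these values was not tested. The clusters were built without the disease-associated genes.

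Inflammatory, immediate-early and purinergic genes had mixed values, to be read beside 53.0% and 42.7% of all genes lower and the all-gene medians of -0.04 in medium and 0.08 in late. Of 12 inflammatory genes, which are cytokine genes apart from Nfkbia and Tnfaip3, inhibitors of NF-kB signaling, 3 were lower in medium and 7 in late (medians 0.30 and -0.38). The 3 in medium, named after their values were seen, were Il6 (-0.80, interval -1.97 to 0.20), Nfkbia (-0.34) and Tnfaip3 (-0.16). Tnf had 1119, 1274 and 594 CPM, a log2 ratio of -0.91 in late, and Il1a and Cxcl10 -0.59 and -0.57, while Il6 was near its counting limit at -0.69 (-1.59 to 0.11). Of 13 immediate-early and heat shock genes, which respond to tissue handling, 10 were lower in medium (median -0.18) and 4 in late (median 0.16), with late values of -0.86 for Hspa1b, -0.67 for Hspa1a, 0.59 for Ier2 and 0.55 for Junb. Of 7 purinergic genes, 3 were lower in medium and 5 in late (medians 0.19 and -0.10). The ATP-gated channel gene P2rx4 had 0.43 in late, while P2ry14 (1.62, interval -0.08 to 3.27) and Nt5e (-0.36, interval -3.61 to 1.91) had few UMIs.

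Part of the members' UMIs lay in CD45+ clusters without a class name. Unnamed cluster 2, led by Cxcl9, Apoc1 and Cd36, held 127 of early (2.49%), 1174 of medium (29.5%) and 316 of late CD45+ cells (15.0%). The 11 microglia markers, of which 1 was at 0 in early, stood at 7614, 6085 and 7083 CPM together in it, and 2 of 13 macrophage or monocyte markers passed the naming rule. Cxcl9, an interferon-induced chemokine gene, had 507, 906 and 6.86 CPM there. Its summed members were 25.0% (23.3 to 26.7) of the microglia-like level in early, 17.9% (17.3 to 18.5) in medium and 19.9% (18.9 to 20.9) in late. Counting it as microglia-like gave -1.37 in medium and -0.63 in late for the summed level over early. This setting was added after the data were seen.

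Within unnamed cluster 2 the members were unequal. P2ry12 was lowest relative to microglia-like cells in all 3 stages, at 14.5%, 11.1% and 9.70%, and Mef2c stood at 49.9%, 42.6% and 45.2%. Fcrls had 66.1 CPM in early, 16.1 in medium and 188 in late, the last of which is 135% of the late microglia-like level. Unnamed cluster 16, led by Cenpe, Mki67 and other cell cycle genes, held 58, 138 and 87 CD45+ cells, and its summed members were 81.3% (76.9 to 85.8), 35.4% (33.5 to 37.5) and 30.0% (28.1 to 32.1) of the microglia-like level. Unnamed cluster 26, with Baiap2l2, Cst7 and Apoc1 among its leading genes, held 123 medium, 2 late and 0 early CD45+ cells, and reached 26.8% (25.0 to 28.8).

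The sorts were compared to ask how far the members separate CD45+ from CD45- cells, on UMIs summed per tumor sample and sort. All 10 members were higher in CD45+ cells at an adjusted p under 0.05 (edgeR quasi-likelihood test, 3 pairs with tumor sample as block, two-sided, Benjamini-Hochberg over 18433 genes), where 20.4% of genes were higher. Each member was higher in 3 of 3 pairs. At every stage the CD45+ sort was also richer in microglia-like cells (78.4%, 19.7% and 50.3% from early to late, against 8.51%, 4.55% and 1.32%). Summed UMIs cannot tell this share from the level within a class. All 10 tests draw on the same share, so they are not 10 separate findings. Whether any member differed between sorts beyond this share was not tested. P2ry12 had 2773, 551 and 1235 CPM in the CD45+ sort, from early to late, against 272, 79.3 and 51.4 CPM in the CD45- sort, so CD45+ and CD45- values did not overlap. The log2 fold change was 3.94 (SE 0.42, edgeR adjusted p = 0.000376). P2ry13 had 4.60 (SE 0.56, adjusted p = 0.000793), Gpr34 4.27 (SE 0.49, adjusted p = 0.000637) and Tmem119 4.21 (SE 0.38, adjusted p = 0.000207).

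Fcrls and Selplg had the largest fold changes between sorts, and the transcription factor genes Sall1 and Mef2c the smallest. Siglech had a log2 fold change of 4.27 (SE 0.54, edgeR adjusted p = 0.000951), Selplg 4.62 (SE 0.49, adjusted p = 0.000451) and Olfml3 3.38 (SE 0.26, adjusted p = 0.000143). Fcrls had 150, 22.7 and 135 CPM in CD45+ and 8.52, 2.74 and 0.850 in CD45- cells, with a log2 fold change of 5.04 (SE 0.73, adjusted p = 0.00167). Its call was lost when genes with at least 1 count were all tested (adjusted p = 0.0730), and no other alternative changed a call of a member. Sall1 had 169, 48.9 and 115 CPM in CD45+ and 40.9, 30.3 and 19.6 in CD45- cells (log2 fold change 2.14, SE 0.36, edgeR adjusted p = 0.00307). Mef2c had 448, 160 and 288 against 88.1, 58.7 and 82.3 (log2 fold change 2.23, SE 0.25, edgeR adjusted p = 0.000432).

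**Figure D3:**
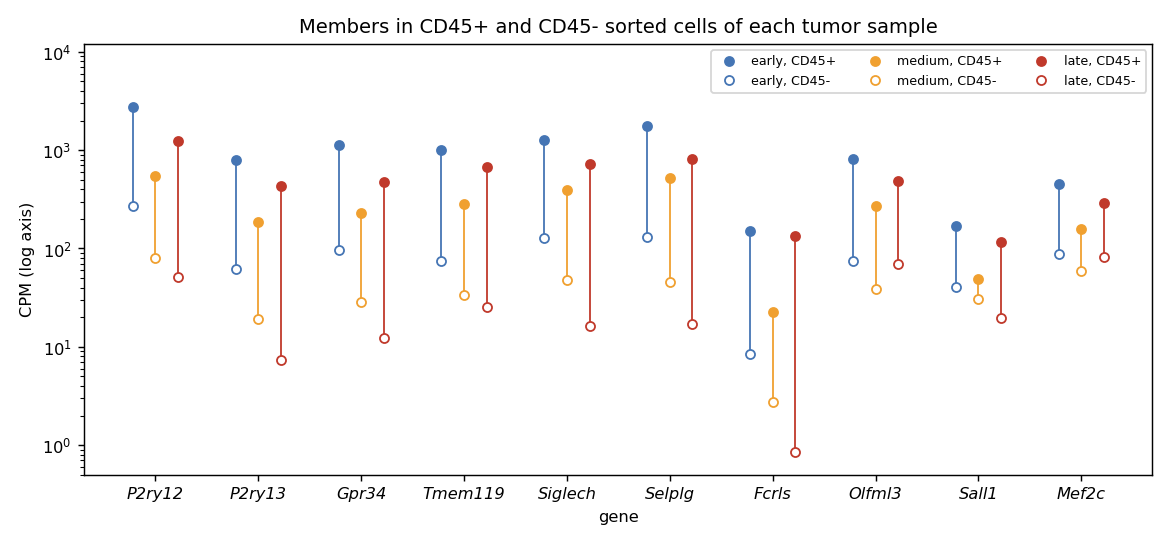
CPM (log axis) of each member in CD45+ (filled) and CD45- (open) cells of the early, medium and late tumor sample, each pair joined by a line. CD45+ lies above CD45- in 3 of 3 pairs for every member, with the shortest lines for Sall1 and Mef2c.

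Much of the CD45- signal lay in microglia-like cells that had entered the CD45- sort. They made up 8.51% of early, 4.55% of medium and 1.32% of late CD45- cells (232, 73 and 30 cells), and their summed members stood at 12070 CPM in early and 9029 in medium, against 12658 and 9946 in the CD45+ sort. P2ry12 stood at 3787 and 2513 CPM against 3438 and 2461, and P2ry13 at 831 and 555 against 984 and 762. These cells held 80.4% of the members' UMIs in early CD45- cells, 61.9% in medium and 32.5% in late. For Sall1 and Mef2c the shares were lower, at 34.4% and 36.0% in early and 8.17% and 2.41% in late.

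How far free RNA of lysed microglia could carry the members into other classes was read from their level in each class as a percent of the microglia-like level of the same sort and stage. RNA from a single source would give all members about the same percent. In CD45+ T cell-like cells, which are not known to use most of these genes, the summed members stood at 17.9% (17.0 to 18.9) in early, 14.7% (13.9 to 15.6) in medium and 13.3% (12.03 to 14.7) in late. In early the members ran from Sall1 at 12.04% to Selplg at 30.1%, with P2ry12 at 14.7% and P2ry13 at 18.8%. In late they were less even, with Sall1 at 3.12% (0.377 to 11.3) and Gpr34 at 6.71% (3.97 to 10.6) lowest. Fcrls then stood at 24.9% (11.8 to 46.4), from 10 UMIs, and Selplg at 31.1%. A cluster with Il13, Il5 and Areg among its leading genes held 40 of the 122 late T cell-like cells, against 3 of 318 early and 2 of 421 medium ones, and at resolution 1, where these cells had no class, the late sum was 16.1%. With each cell classed by its own markers the sums were 6.09%, 13.6% and 11.1%, so early then had the lowest percent, with P2ry12 at 2.75%. The microglia-like level that these percents are taken of also differed between stages in this setting. Its medium sum was 36.7% and its late sum 55.2% of early, so these percents do not rank the stages by their T cell-like level. Selplg was the highest at all stages, at 30.1%, 27.2% and 31.1%.

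The signal was uneven between cells. At 1000 UMIs per cell, 45.5% of early T cell-like cells showed no member, and the tenth of cells with the most members held 51.5% of their UMIs, against 19.1% among microglia-like cells. Leaving out the tenth of cells with the highest share of microglia markers lowered the T cell-like sum to 11.9% in early, 10.6% in medium and 6.24% in late. Selplg then stood at 24.8%, 24.3% and 25.2%, while P2ry12 stood at 9.51%, 5.24% and 2.34%. Over the 14 CD45+ groups of class and stage that kept at least 50 cells, the median of the summed members was 9.87% before this step and 6.12% after it. Scrublet marked few cells, 113 of 17786, and doublets and free RNA were not told apart.

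Neutrophil-like cells stood at 29.9% (27.4 to 32.5) in early and 6.07% (5.54 to 6.63) in medium, from 52 and 257 cells, with Selplg highest in both (46.5% and 12.5%). Of these, 38 of 52 early cells lay in a cluster led by Stfa2l1, and 210 of 257 medium cells in one with Ly6g, Ltf and Cd177 among its leading genes. Without cells of a shared barcode 145 of the medium cells were left, and the sum was 5.43%. Medium B cell-like cells stood at 4.91% (4.39 to 5.46), with Mef2c at 46.1% and with 0 UMIs for Fcrls and Sall1. Dendritic cell-like cells had 8.78%, 7.74% and 13.5% in early, medium and late, with Selplg at 14.5%, 23.1% and 25.7% and Mef2c at 17.5%, 24.5% and 33.9%. Fcrls, from 3, 0 and 12 UMIs, stood at 8.26%, 0% and 61.5% (31.4 to 108.8 in late) there. In these classes Selplg and Mef2c stood above the sum of the members.

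Border or perivascular macrophage-like cells carried Fcrls at or above the level of microglia-like cells. In border or perivascular macrophage-like cells Fcrls had 198, 110 and 201 CPM in early, medium and late, which is 112%, 160% and 144% of the microglia-like level, while the sum of the members stood at 15.0%, 9.96% and 15.8%. Mef2c stood at 56.6%, 50.1% and 66.0% there, and P2ry12 at 9.19% in early. Leaving out the tenth of cells with most microglia markers left Fcrls at 120%, 158% and 154%. In macrophage or monocyte-like cells the sum stood at 9.78%, 8.97% and 10.9%, and Fcrls had 11.9, 7.25 and 185 CPM, or 6.72%, 10.6% and 133% of the microglia-like level. Different clusters held this class, since 72 of 73 early and 238 of 240 medium cells lay in a cluster with Ly6i, Ms4a4c and Plac8 among its leading genes, and 200 of 233 late cells in one with Retnla, Arg1 and Gpnmb. Stage and cluster therefore cannot be told apart for these values. With each cell classed by its own markers, late Fcrls stood at 66.4% in this class, below the microglia-like level, and the early sum at 3.40%. In late CD45+ cells 45.4% of Fcrls UMIs lay in microglia-like cells, the lowest share of the 10 members.

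Siglech is also a marker of plasmacytoid dendritic cells, which produce interferon. The 62 plasmacytoid dendritic cell-like cells of the 3 stages had 2544 (2285 to 2825) CPM of Siglech, against 1529 in microglia-like cells, and 93.5% of them had a UMI of it. Gpr34, which is not known to be theirs, stood at 94.2 CPM and was seen in 8.06% of them. Selplg stood at 884 CPM, Mef2c at 283 and P2ry12 at 181, and Fcrls and Sall1 had 1 UMI each.

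**Figure D4:**
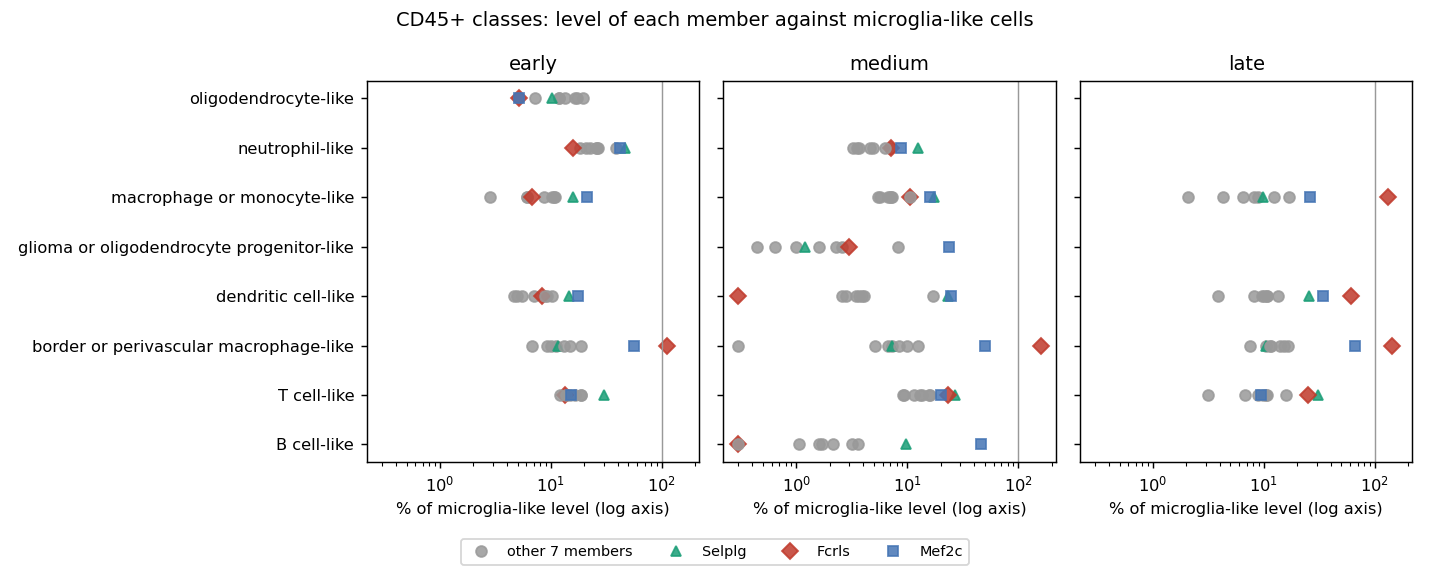
Level of each member in CD45+ classes of at least 50 cells as a percent of its level in microglia-like cells of the same stage (log axis; gray line at 100%; members without a UMI sit at the left edge). Fcrls reaches 112% to 160% in border or perivascular macrophage-like cells and Mef2c 46.1% in medium B cell-like cells.

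In CD45- classes the members were near their floor, with the exception of a few gene and class pairs. In early and medium, since late CD45- cells held only 30 microglia-like cells and gave no such percent, the summed members ranged from 0.310% (0.235 to 0.401) of the microglia-like level in early choroid plexus-like cells to 6.27% (5.03 to 7.72) in medium astrocyte-like cells. Sall1 in oligodendrocyte-like cells had 44.6, 46.8 and 57.2 CPM in early, medium and late, 20.6% of the microglia-like level in early and 35.2% in medium, while P2ry12 had 11.2, 0 and 1.99 there. In glioma or oligodendrocyte progenitor-like cells Sall1 had 29.1, 18.5 and 15.4. Mef2c in neuron or neuroblast-like cells had 497 and 531 CPM in early and late, which is 102% of the microglia-like level in early. Endothelial cell-like cells had 72.8, 88.8 and 7.86 for Mef2c. Olfml3 in fibroblast-like cells had 153, 172 and 217, with Tmem119 at 67.3, 84.4 and 72.5.

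A cluster of the CD45- sort carried a subset of the members. Unnamed cluster 9, led by Pth2r, with Dhh among its leading genes, held 607 CD45- cells, 530 of them late. It had the human EGFR transgene at 1312 CPM and the microglia marker Cx3cr1 at 3.75. Its Olfml3 stood at 138 (127 to 149) CPM, Mef2c at 93.9, P2ry12 at 44.5 (38.6 to 51.1) and Tmem119 at 30.4 (25.6 to 35.9). In contrast P2ry13 had 3 UMIs in all (0.661 CPM), Gpr34 1 and Fcrls 0, which allows up to 0.661 CPM (3 counts). In late CD45- cells this cluster held 80.6% of Olfml3, 45.8% of Tmem119 and 35.7% of P2ry12 UMIs. P2ry12 and P2ry13 lie inside Med12l, which is on the opposite strand, and Gpr34 inside Cask. Med12l had 40 CPM and Cask 102 in CD45+ microglia-like cells, against 3140 for P2ry12 and 1241 for Gpr34. In unnamed cluster 9 Med12l had 22.04 CPM beside 44.5 for P2ry12, and Cask 212.5 beside 0.220 for Gpr34. In CD45- glioma or oligodendrocyte progenitor-like cells Med12l had 23.1 CPM beside 4.29 for P2ry12. Whether strand was used in counting is not given in the sources used here. Whether reads of these pairs were mixed at the lower levels was not tested.

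**Figure D5:**
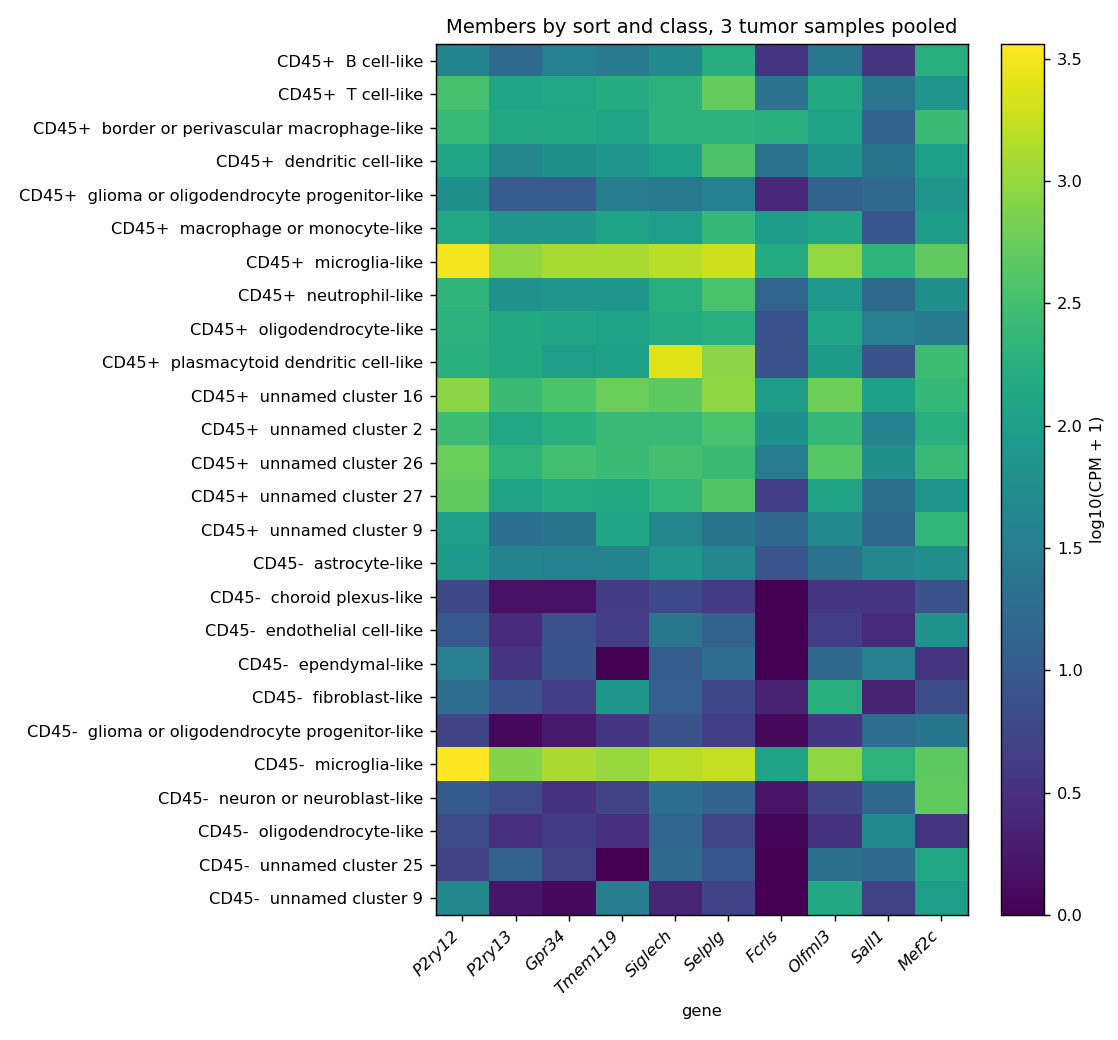
Log10 of CPM plus 1 (color) for each member (columns) in each class by sort (rows), the 3 tumor samples pooled; colors compare classes within a column. Microglia-like rows are brightest in most columns, Siglech is brightest in plasmacytoid dendritic cell-like cells (2544 CPM), and Sall1 and Mef2c are lit in CD45- oligodendrocyte-like and neuron or neuroblast-like rows.

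Genes with a pattern like that of the members were ranked by Pearson correlation with their sum over 51 groups of class, sort and stage with at least 50 cells, on log2(CPM + 10), as a description. The groups share libraries and depth and are not independent. Among the 10 nearest were Gfm2 (r = 0.92), Trim5 (0.92), Csf1r (0.91), Cx3cr1 (0.91), Rgs10 (0.91), Gm14023 (0.90), Tgfbr1 (0.90), Lair1 (0.90) and Il1a (0.90), of which Cx3cr1 and Tgfbr1 are markers of the class. Each of these had at least 156 CPM in microglia-like cells at every stage. Among the members P2ry13 (0.94) and P2ry12 (0.94) were nearest to the sum, which includes them, and Sall1 (0.65) farthest, with Mef2c (0.78) and Fcrls (0.79) next.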

How the data were processed

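The count table deposited by the authors gives unscaled UMI counts for each gene in every cell, and a deposited annotation (unit: other) gives the run, sort and stage of each library as text. The authors counted UMIs with RapMap in bcbio-nextgen on the GRCm38 transcriptome to which the transgenes had been joined, and separated cells from empty droplets. The submitters' processing notes name mm10. The authors describe removing ambient RNA and doublets, but whether this came before the table was written is not given in the sources used here. No count was normalized before deposit, and all 20811 cell columns were used.

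Cells with at least 500 UMIs, at least 500 genes and at most 20% mitochondrial UMIs were kept (17894). Scrublet (expected rate 6%) called 113 of 17786 cells (0.635%) as doublets, which were removed. Cells were clustered with scanpy 1.11.5 and leidenalg 0.10.2 (2000 variable genes, 40 principal components, 20 neighbours, Leiden resolution 1.5, seed 1). The variable genes left out the members and every gene of the fixed lists that was not a class marker. Xist, Tsix, Y-linked, mitochondrial and Gm-numbered genes were left out too. Where the members were kept in clustering, the other genes stayed out. A cluster was named when at least 3 markers of a class were 2-fold higher and present in 10% of its cells, unless its top 10 genes held more markers of another class, and 6 of 37 clusters stayed unnamed. Among them, 1 passed 9 endothelial cell markers, but its top 10 genes held 2 of mural cells and 0 of these. A further one, with 3 mast cell markers among its top 10 genes, was left unnamed after seeing the data, for the granulocyte precursor genes Elane, Mpo, Prtn3, Ctsg and Ms4a3 there. Resolution 1.5 was chosen after seeing the clusters, because resolution 1 merged dendritic with monocyte and mast with T cell markers. A few other genes and part of the genotype are not reported here. Members and gene lists were chosen with earlier results of these data known.

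Levels are UMIs per 1000000 UMIs of a group (CPM), and counting intervals are exact at 95%. UMIs are tags of transcripts, not scaled by length, so levels were not ranked between genes. From each list the 4 genes with the largest absolute log2 ratio of late over early were named. Sorts were compared with edgeR 4.0.16 (R 4.3.3; TMM factors 0.835 to 1.21, filterByExpr, 2 residual degrees of freedom, dispersion 0.0678). Both sorts of a stage came from the same tumor sample, so the sample was a block: deviations of the sorts from their sort mean correlated at 0.383, 0.277 and 0.320 in early, medium and late. The SE is the absolute log2 fold change over the square root of F. On simulated data of this comparison (18485 genes) 99 of 99 changes of 3 log2 units and 66 of 98 of 1.5 were recovered, with 5 unchanged genes called. Whether the 3 tumor samples, each from separate animals, stand for their stage was not tested.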

Additional observations from a re-analysis of the deposited data

Results flagged for a closer look

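In the 44 groups of 4 CD45+ libraries examined, 2 held a library far from the others (Dixon's criterion above 0.829), and chance flags about 1 group in 20. Selplg in medium microglia-like cells had 1395 CPM in its lowest library, against 1741 in the next and 1783 in the highest. Siglech over all medium CD45+ cells had 436.9 CPM in its highest library, against 368.8 in the next and 363.8 in the lowest.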

How the results depend on the processing

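The members called higher in CD45+ cells numbered 10 in every alternative except with all genes of at least 1 count (9, without Fcrls), among them DESeq2 1.42.0, no TMM factors, every deposited cell, doublets kept, cells with a shared barcode left out, and each tumor sample left out in turn (10 to 10). Tumor sample as a block follows from the design, and without the replicate block the count was also 10 (adjusted p 0.00143 to 0.0120). No alternative but those named changed a call.

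The summed level in microglia-like cells, -0.35 in medium and -0.31 in late over early on the log2 scale, moved with the choice of cells. Medium and late values were -0.17 and -0.011 with members kept in clustering, -1.45 and -0.86 with a class per cell, -0.17 and -0.13 with every deposited cell, -0.53 and -0.83 within cluster 1, and -0.21 and -0.076 within cluster 3. Within cluster 5 they were -0.18 and 0.013, the latter reversed. Resolution 1, which resolution 1.5 replaced after the clusters were seen, gave -0.24 and -0.12. With unnamed cluster 2 counted in, an alternative added after seeing the data, as was leaving out shared barcodes, they were -1.37 and -0.63, and with unnamed clusters 2, 16 and 26 -1.44 and -0.71. The cause of these moves was not tested. Leaving out each library in turn gave -0.39 to -0.32 in medium and -0.46 to -0.26 in late. The share of the microglia-like level in other classes was 10.9% in the median over 17 groups. Without the tenth of cells with most microglia markers it was 6.12% over the 14 groups left, which had 9.87% before.

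Single members turned direction as follows (log2). P2ry13 in late was 0.14 with members kept, 0.017 with every deposited cell, 0.26 in cluster 5 and 0.025 at resolution 1. Siglech in late was 0.023 as a mean over cells, 0.049 thinned, 0.19 with members kept, 0.094 with every deposited cell, 0.0015 within run 3, 0.13 in cluster 3, 0.10 in cluster 5 and 0.092 at resolution 1. In late, Fcrls was 0.055 in cluster 4 and Olfml3 0.11 in cluster 3. In medium, Tmem119 was 0.14 in cluster 5, Siglech 0.073 with members kept, 0.051 with every deposited cell and 0.14 in cluster 5, and Sall1 0.043 with every deposited cell and 0.17 in cluster 3. Olfml3 in medium was 0.093 with members kept, 0.018 with every deposited cell, 0.0083 within run 2, 0.16 in cluster 3 and 0.021 at resolution 1. Tmem119 and Sall1 in late, above early as reported, were below it in 6 and 5 of 25 alternatives, down to -0.56 and -0.45. Fcrls in medium ran from -2.31 with unnamed clusters 2, 16 and 26 counted in to -0.58 with every deposited cell. Depth limited Fcrls most, with 104 UMIs in medium microglia-like cells.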
